A study of Mus musculus with 37 samples.

Results

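Gene expression in E10.5 mouse hearts that lacked 1 working copy of Nipbl was compared with that of wild-type hearts from the same kind of cross. The comparison used the 9 libraries titled Nipbl +/- without a change at Isl1 and the 10 libraries titled Nipbl +/+; Isl1 +/+, which make 19 of the 37 libraries of the series. Fathers were Stra8-iCre; Nipbl Flox/+, so the null allele, called Nipbl FIN, came through sperm and was present in the whole embryo rather than in the heart alone. Mothers were Isl1 Cre/+, a line in which Cre sits in 1 Isl1 allele. Nipbl +/- and wild-type embryos therefore had both working Isl1 alleles from this cross. The functional paternal allele is described as a wild-type Flox allele, so controls may carry loxP sites. The hearts are described as dissected whole, and nothing in the labels gives the litter, the sex or the number of hearts per library. P-values thus measure the spread between these libraries, which may be partly technical. In bulk tissue, fewer cells of a type and less RNA per cell cannot be told apart.

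Nipbl is the protein that loads cohesin onto chromosomes. Cohesin is a ring complex that extrudes chromatin loops and brings enhancers near promoters, and it also holds sister chromatids together. Loss of 1 NIPBL allele is the most frequent known cause of Cornelia de Lange syndrome, in which septal and other heart defects are common. At E10.5 the mouse heart has looped, the ventricles are building trabeculae, the endocardial cushions are forming and progenitors of the second heart field are still joining both ends of the tube.

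The total count was 23.4 to 38.1 mega-counts (M) per library in wild-type and 31.6 to 46.1 M in Nipbl +/- hearts, and 16632 to 17774 genes had at least 1 count. The labels carry a set number, written after the letters IVF, whose meaning they do not spell out. Set 1 held 3 wild-type and 0 Nipbl +/- libraries, set 2 held 3 and 2, set 5 held 2 and 4, and set 6 held 2 and 3. The sarcomere genes that mark heart muscle were abundant throughout, with a summed level between 26625 and 44839 CPM (counts scaled to a common library total) in the 19 libraries. Markers of other cells also moved between libraries. The summed erythroid level spanned 1873 to 106543 CPM in wild-type and 504 to 23433 CPM in Nipbl +/- hearts, highest in wild-type replicate 7 and lowest in the library labelled Nipbl +/- replicate 2. Summed foregut and liver endoderm markers reached 382 CPM in Nipbl +/- replicate 9, where Afp alone stood at 301 CPM, against at most 18.4 CPM in wild-type and 12.7 CPM in the other Nipbl +/- libraries.

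The targeted gene checks the labels. Nipbl (chr15:8289824-8465315, GRCm38) stood at 47.6, 57.0 and 78.8 CPM as the lowest, median and highest wild-type values, and at 27.1, 37.6 and 72.4 CPM in Nipbl +/- hearts. Of the 9 Nipbl +/- libraries, 8 lay below every wild-type library, between 27.1 and 44.9 CPM. The exception, at 72.4 CPM, was the library labelled Nipbl +/- replicate 2, which lay within the wild-type range. Its Nipbl level thus goes against its label, and whether the label is right was not tested. Every count over the 9 Nipbl +/- libraries includes it as labelled. Across all 9 libraries the log2 change was -0.74 (SE 0.12, edgeR adjusted p = 3.48e-04), and without the library labelled replicate 2 it was -0.88. The latter is a description with no test, since that library is left out partly for its Nipbl level. The change held its sign within sets 2, 5 and 6, at -0.96, -0.43 and -1.04.

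The library labelled Nipbl +/- replicate 2 stood apart in more than Nipbl. Among 13 genes of the unfolded protein and integrated stress responses it had the highest level of the 19 libraries in 12, and among 12 genes induced by low oxygen in 12. Ndrg1, a low-oxygen and stress gene, stood at 545 CPM there against at most 7.33 CPM in the other 18 libraries. Ddit3, the stress transcription factor CHOP, stood at 702 CPM against at most 25.4 CPM. The median log2 change of the unfolded protein list was 0.39 with this library and -0.02 without it, and that of the low-oxygen list was 1.01 with it and -0.00 without it. One low-oxygen gene, Adm, passed only without it, at 0.47 (SE 0.13, edgeR adjusted p = 0.0334), in a fit that leaves this library out partly for such genes. Adm, which encodes the peptide adrenomedullin, ranged from 5.17 to 9.04 CPM in wild-type and from 7.99 to 10.2 CPM in the other 8 Nipbl +/- libraries, so the ranges overlapped. Values are therefore given with and without it for most called genes.

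With all 9 Nipbl +/- libraries, 258 of 15046 tested genes passed an adjusted p of 0.05, which is 1.71% of the genes tested: 180 were higher (1.2%) and 78 lower (0.518%) in Nipbl +/- hearts. Without the library labelled replicate 2 the count was 410 of 15072 (2.72%), with 269 higher (1.78%) and 141 lower (0.936%). The calls common to both fits were 243 genes (1.62% of those tested), 165 higher (1.1%) and 78 lower (0.518%). Their changes were modest, with a median size of 0.61 on the log2 scale, and 56 exceeded 1. The median over all genes tested was 0.01. These counts come from a fit over all 37 libraries, in which the 2 other genotypes also inform the spread and the set terms, and set 1 is tied to the rest through its Isl1 +/- libraries. A fit on the 19 libraries alone called 21 genes, and 88 without the library labelled replicate 2.

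The genes with the clearest rise formed no single family. They included a histone gene, a retinoid-responsive gene, a calcium channel subunit, a zinc-finger gene, a membrane repair gene and a homeobox gene. H2bu2, which encodes an H2B histone, stood at 2.37, 2.80 and 4.27 CPM (lowest, median, highest) in wild-type and 4.44, 5.06 and 15.3 CPM in Nipbl +/- hearts. All 9 Nipbl +/- libraries lay above every wild-type library, an ordering that 20 of 15046 genes showed (0.133%). H2bu2 had a log2 change of 1.34 (SE 0.18, edgeR adjusted p = 7.34e-05) and 1.11 without the library labelled replicate 2, which gave the 15.3 CPM. Histone genes have near-identical copies, so its reads may be shared with them.

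Rarres1 (chr3:67478886-67515523), a gene known for its response to retinoic acid, rose from a median of 1.47 CPM (range 0.89 to 2.13) to 3.89 CPM (2.02 to 5.61). In 8 of 9 Nipbl +/- libraries it exceeded every wild-type value, and the exception was the library labelled replicate 2. In log2 the change was 1.21 (SE 0.16, edgeR adjusted p = 7.34e-05) and 1.29 without that library. Of 16 tested genes of the retinoic acid pathway it was the only one past the threshold in either fit.

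Trim72 (chr7:128003462-128011393), which encodes the muscle membrane repair protein MG53, had levels of 11.2, 15.7 and 20.0 CPM in wild-type and 21.2, 23.9 and 27.3 CPM in Nipbl +/- hearts. The 2 groups did not overlap, and the library labelled replicate 2, at 21.6 CPM, sat with the others. Trim72 had a log2 change of 0.59 (SE 0.09, edgeR adjusted p = 1.43e-04), and of 0.61 without that library. Cacnb3 (chr15:98628436-98644536), a beta subunit of voltage-gated calcium channels, had levels of 22.9, 26.8 and 31.0 CPM in wild-type and 28.2, 37.6 and 56.0 CPM in Nipbl +/- hearts. In 8 of 9 Nipbl +/- libraries it exceeded every wild-type library. In log2 the change was 0.67 (SE 0.10, edgeR adjusted p = 1.05e-04) and 0.60 without the library labelled replicate 2. Among the 12 listed genes of calcium handling, Cacnb3 was the only one past the threshold in either edgeR fit. DESeq2 called 1 with all libraries and 2 without the library labelled replicate 2. The list leaves out Sln, Atp2a1 and Cacng6, given below, which passed in both edgeR fits.

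Oit3 (chr10:59422960-59441779), which encodes a secreted protein with a zona pellucida domain, showed the largest rise among the 10 leading higher genes. It stood at 1.32, 2.37 and 6.68 CPM in wild-type and 6.67, 8.19 and 15.8 CPM in Nipbl +/- hearts. The lowest Nipbl +/- library only just met the highest wild-type library. Oit3 had a log2 change of 1.74 (SE 0.27, edgeR adjusted p = 2.48e-04), and of 1.66 without the library labelled replicate 2. Barx2 (chr9:31846044-31913285), a homeobox transcription factor, rose from a median of 1.51 to 3.25 CPM, or by 1.25 in log2 (SE 0.20, adjusted p = 3.79e-04) and 1.21 without that library. The remaining leading genes were Rgs8, which encodes a regulator of G protein signalling, at 1.07; Clic6, of the chloride intracellular channel family, at 0.82; and Nfe2l3, a basic leucine zipper factor, at 0.77. Without the library labelled replicate 2 these 3 stood at 1.01, 0.76 and 0.79. Rgs8 and Nfe2l3 did not overlap between the groups.

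The 10 leading genes that fell were Slitrk5, Klf14, Lpar3, Mycn, Sobp, Trib2, Lrrc4b, Col23a1, Tnni2 and Irx6, which also formed no single family. Slitrk5 (chr14:111675115-111683144), a transmembrane protein best known from synapses, had levels of 21.2, 31.2 and 38.5 CPM in wild-type and 9.59, 17.6 and 24.3 CPM in Nipbl +/- hearts. In 8 of 9 Nipbl +/- libraries it was below every wild-type library, and the lowest value belonged to the library labelled replicate 2. Slitrk5 had a log2 change of -0.91 (SE 0.12, edgeR adjusted p = 7.34e-05) and -0.83 without that library. Lrrc4b (chr7:44442487-44463351), a second synaptic adhesion protein of the leucine-rich repeat class, fell from a median of 38.3 to 30.5 CPM, with a log2 change of -0.40 (SE 0.07, adjusted p = 9.69e-04) and -0.41 without that library. These were 2 of the 6 tested genes of the Slitrk and Lrrc4 families, against a background of 0.518% of genes called lower. Of the 6, 2 had a positive and 4 a negative change. As with every gene list here, the members were chosen with earlier results of these data known, so the count is a description and not a test.

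Klf14 (chr6:30956021-30958990), an imprinted Kruppel-like transcription factor, stood at 2.01, 3.05 and 4.00 CPM in wild-type and 0.492, 1.32 and 1.63 CPM in Nipbl +/- hearts. All 9 Nipbl +/- libraries were below every wild-type library, an ordering found for 6 of 15046 genes (0.0399%). In log2 the change was -1.37 (SE 0.19, edgeR adjusted p = 9.60e-05) and -1.28 without the library labelled replicate 2. Trib2 (chr12:15791725-15816962), a pseudokinase that acts as a scaffold in protein degradation, had levels of 59.3, 77.4 and 90.1 CPM in wild-type. In Nipbl +/- hearts they were 18.6, 46.9 and 59.6 CPM, with the lowest in the library labelled replicate 2 and the other 8 between 41.1 and 59.6 CPM. Its log2 change was -0.75 (SE 0.12, edgeR adjusted p = 6.29e-04), and -0.65 (adjusted p = 3.31e-06) without that library.

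Tnni2 (chr7:142441816-142444410), the fast skeletal form of troponin I, was expressed at 31.6, 44.1 and 82.2 CPM in wild-type and at 13.1, 17.4 and 31.6 CPM in Nipbl +/- hearts. The highest Nipbl +/- library lay just under the lowest wild-type one. In log2 the change was -1.11 (SE 0.20, edgeR adjusted p = 0.00168) and -1.08 without the library labelled replicate 2. Lpar3, a receptor for lysophosphatidic acid, fell by 0.43 on the log2 scale, and it was the only 1 of 10 tested lysophospholipid receptors past the threshold. Sobp, a nuclear zinc-finger protein, changed by -0.75, and Col23a1, a transmembrane collagen, by -0.61. Without the library labelled replicate 2 Lpar3, Sobp and Col23a1 changed by -0.43, -0.76 and -0.54. All 9 Nipbl +/- libraries lay below the wild-type mean for each of these.

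**Figure D1:**
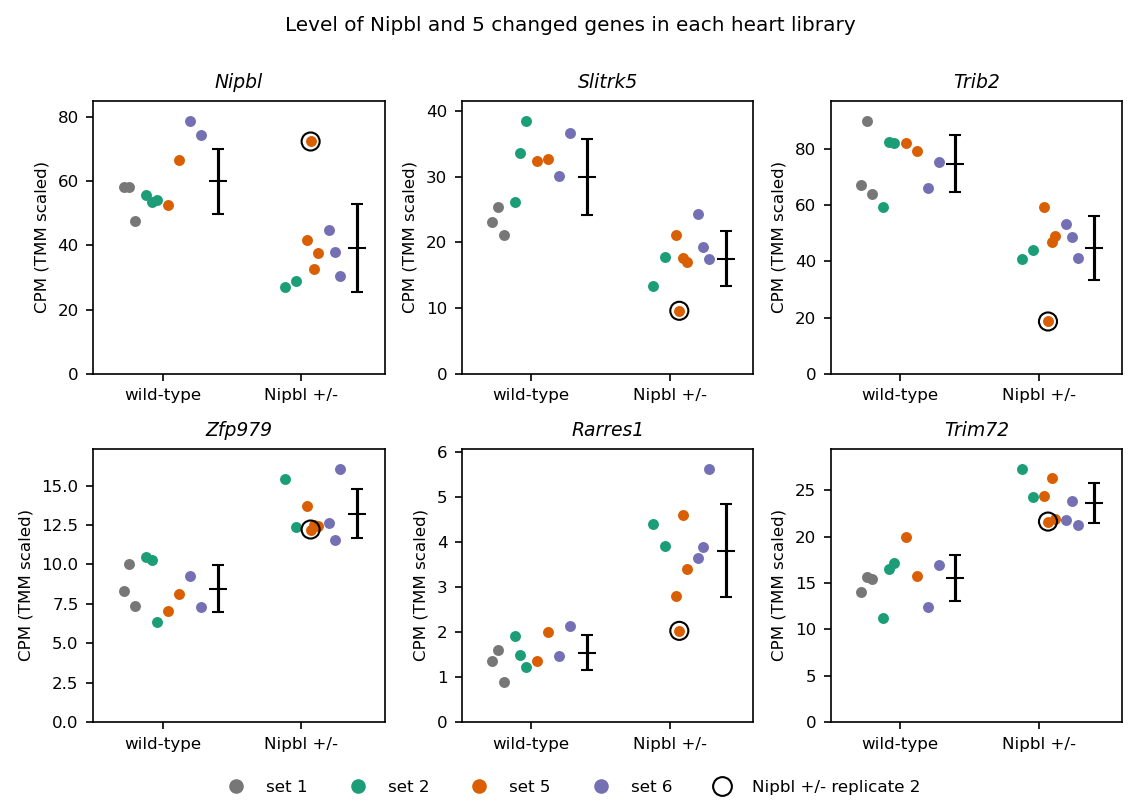
Level of Nipbl and 5 changed genes in each library, in CPM after TMM scaling, for 10 wild-type and 9 Nipbl +/- hearts. Points are libraries coloured by set, the black bar is the mean with its SD, and the ring marks the library labelled Nipbl +/- replicate 2, which lies at 72.4 CPM for Nipbl and at 18.6 CPM for Trib2.

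The same loss of 1 Nipbl allele was also present in hearts that carried a single working Isl1 allele. The comparison of Nipbl +/-; Isl1 +/- with Isl1 +/- hearts shares no library with the one above, although both come from 1 fit. It rests on 8 of 9 double heterozygous libraries, since 1 is alone in its set and is fitted exactly. Of 15046 genes, 144 passed there (0.957%). Among the 243 genes called in both fits, 240 had the same sign in these other hearts, and 69 (28.4%) passed the threshold there: 36 of the 165 higher genes and 33 of the 78 lower genes. Lrrc38, Cobl and Olfr1372-ps1 had the opposite sign.

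The 20 leading genes had the same sign in both comparisons. Of the 10 higher genes 9 passed in the Isl1 +/- hearts, with Oit3 the exception at 0.81 (SE 0.27, edgeR adjusted p = 0.221). Barx2 changed by 1.94 there (SE 0.21, adjusted p = 2.74e-06), Slitrk5 by -1.06 (SE 0.13, adjusted p = 7.08e-06) and Trim72 by 0.71 (SE 0.09, adjusted p = 2.45e-05). Of the 10 lower genes 7 passed, and Mycn, Tnni2 and Irx6 did not, at -0.23, -0.68 and -0.43. For 53 named genes the difference between the 2 effects was tested in the same edgeR fit, and for 0 of them did it pass, with a smallest adjusted p of 0.999. All 20 genes stayed past the threshold when any 1 of the 19 libraries was left out. In the fit on the 19 libraries alone 9 of the 10 higher and 7 of the 10 lower genes passed, and Rgs8, Mycn, Trib2 and Col23a1 did not (edgeR adjusted p = 0.0596, 0.0638, 0.109 and 0.0566). Of all 53 named genes 18 passed in that fit. The others among them were Sox3 and Pcdhb19, so the remaining calls of list members given below rest on the fit over all 37 libraries. Leaving out the library labelled replicate 2 as well, 28 of the 53 passed.

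**Figure D2:**
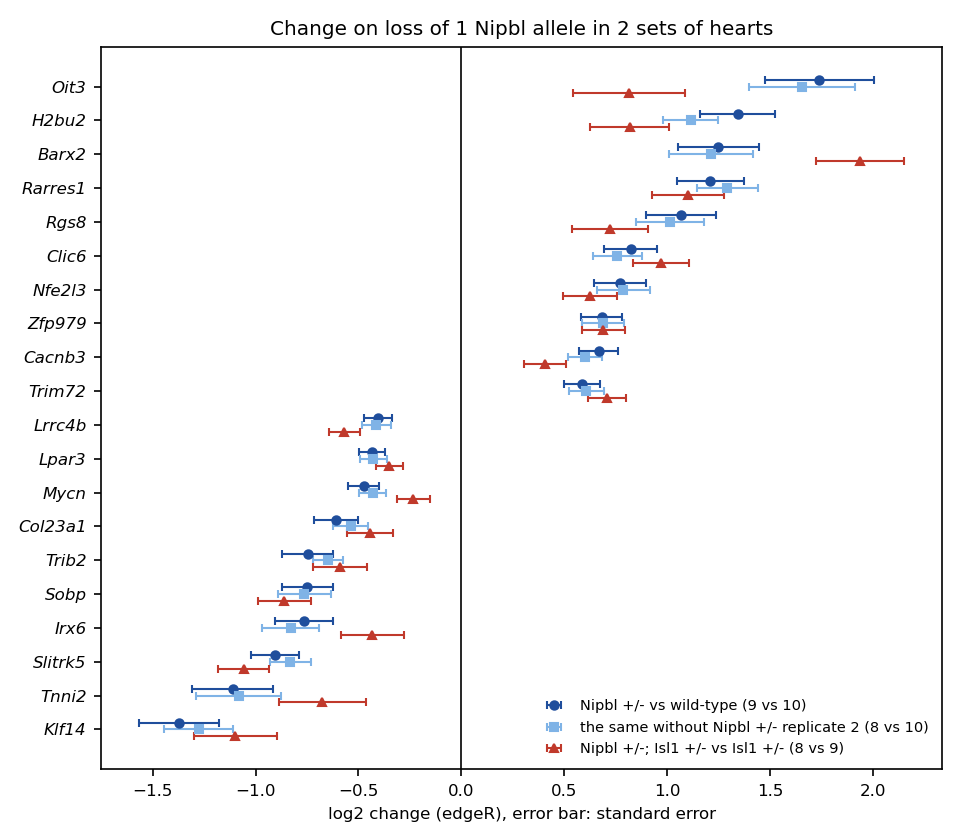
Log2 change with its standard error for the 10 leading higher and 10 leading lower genes, for Nipbl +/- against wild-type, the same without the library labelled replicate 2, and Nipbl +/-; Isl1 +/- against Isl1 +/-. The 3 estimates have the same sign for each gene, from 1.74 for Oit3 to -1.37 for Klf14 in the first comparison.

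Zfp979, which encodes a zinc-finger protein, did not overlap between the groups: its lowest, median and highest levels in Nipbl +/- hearts were 11.6, 12.5 and 16.0 CPM, and every wild-type library stood below 11.6 CPM, from 6.31 CPM with a median of 8.23 CPM. Its log2 change was 0.68 (SE 0.10, edgeR adjusted p = 1.43e-04), 0.69 without the library labelled replicate 2, and 0.65, 0.74 and 0.69 within sets 2, 5 and 6. In the Isl1 +/- hearts it was 0.69 (SE 0.11, adjusted p = 2.68e-04). It sits in a block of mostly related genes on chromosome 4 that was looked at after its values were seen. From Gm13212 to Zfp933 (chr4:145585172-147849126, GRCm38) 12 genes were tested, of which 10 had a positive change, and the median was 0.50 on the log2 scale. In both fits 5 were called, where 1.62% of all genes were (1.1% higher), though 1 of the 5, Zfp979, had led to the choice of the block. They were Gm13212 at 0.53, Zfp992 at 0.58, Zfp991 at 1.19, Zfp982 at 0.47 and Zfp979, and the first 4 had values of 0.47, 0.60, 1.17 and 0.46 without the library labelled replicate 2. In the Isl1 +/- hearts Gm13212 also passed, at 0.48 (adjusted p = 0.0342), and Zfp992, Zfp991 and Zfp982 did not, at 0.64 (adjusted p = 0.0567), 0.64 (adjusted p = 0.41) and 0.28 (adjusted p = 0.111). Zfp980 and Zfp985 were past the threshold only without the library labelled replicate 2, at 1.29 (adjusted p = 0.0486) and 1.27 (adjusted p = 0.0444). At the far end Zfp933 stood at -0.08, and at 0.02 without that library. The 12 include a ribosomal protein pseudogene, Rps19-ps3, at 0.24 (SE 0.20). The zinc-finger genes are near copies of each other, so reads may be split or shared between them, and their counts are not independent.

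The likeness extends to the promoters, which are shown because 3 of the called genes have long stretches in common. The lines give 250 bases before to 50 after the RefSeq start (GRCm38.p6), 5′ to 3′ on the gene's strand, with the runs of at least 14 bases found in all 3 in capitals. For Zfp982, which has 3 RefSeq start windows, the one shown lies inside the annotated gene span and was chosen for its likeness to the Zfp979 window. The windows are chr4:147642459-147642758 on the minus strand, chr4:147492167-147492466 on the plus strand and chr4:145584950-145585249 on the plus strand.
Zfp979: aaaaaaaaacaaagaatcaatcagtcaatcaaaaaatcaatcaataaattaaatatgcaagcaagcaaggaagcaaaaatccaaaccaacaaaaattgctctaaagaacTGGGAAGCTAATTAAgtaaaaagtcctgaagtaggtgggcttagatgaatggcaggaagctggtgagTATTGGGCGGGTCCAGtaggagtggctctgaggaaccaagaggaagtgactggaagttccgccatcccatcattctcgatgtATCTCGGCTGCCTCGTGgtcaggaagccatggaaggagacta
Zfp982: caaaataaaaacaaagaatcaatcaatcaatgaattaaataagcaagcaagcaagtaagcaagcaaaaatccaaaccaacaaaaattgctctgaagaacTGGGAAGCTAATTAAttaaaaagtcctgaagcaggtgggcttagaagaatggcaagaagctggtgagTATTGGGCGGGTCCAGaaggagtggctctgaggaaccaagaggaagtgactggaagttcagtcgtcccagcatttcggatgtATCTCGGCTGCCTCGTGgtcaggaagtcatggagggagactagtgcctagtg
Gm13212: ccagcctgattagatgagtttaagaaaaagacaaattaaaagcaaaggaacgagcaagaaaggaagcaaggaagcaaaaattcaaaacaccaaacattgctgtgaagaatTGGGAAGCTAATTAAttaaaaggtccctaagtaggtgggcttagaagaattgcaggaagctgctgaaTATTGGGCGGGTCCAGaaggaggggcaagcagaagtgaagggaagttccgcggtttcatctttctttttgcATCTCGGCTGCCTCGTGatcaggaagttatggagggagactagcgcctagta

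The run TGGGAAGCTAATTAA occurred on either strand in 12 of 32851 mouse promoter windows (0.0365%), TATTGGGCGGGTCCAG in 9 (0.0274%) and ATCTCGGCTGCCTCGTG in 6 (0.0183%). In global pairwise alignments the Zfp979 and Zfp982 windows were 84.9% identical, and Gm13212 was 71.6% identical to the first and 74.9% to the second. The runs were chosen from genes that had already been called. Of the 7 tested genes with TGGGAAGCTAATTAA, 6 had a positive change and 3 were called in both fits; the exception in sign was Zfp600, at -0.30 (SE 0.50), a gene with a median of 0.158 CPM in wild-type hearts. A shared run is a description of the sequence and names no factor that binds it.

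**Figure D3:**
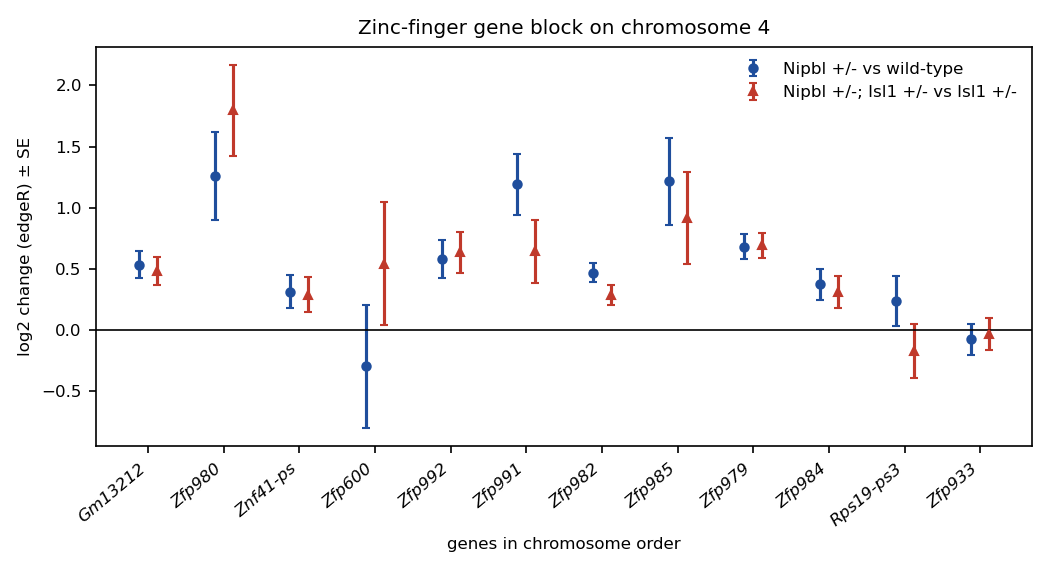
Log2 change with its standard error for the 12 tested genes of the chromosome 4 zinc-finger block, in chromosome order, in Nipbl +/- against wild-type and in Nipbl +/-; Isl1 +/- against Isl1 +/-. In the first comparison 10 of 12 lie above 0, and Zfp600 and Zfp933 lie below it.

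Among genes of chamber identity, 2 of 7 ventricular genes fell and 2 of 9 atrial genes rose, against 0.518% of all genes called lower and 1.2% called higher. Both lists were chosen with earlier results of these data known, so these counts are descriptions and not tests. Mycn, counted among the ventricular genes, is a leading lower gene and is counted again in the Myc network below. All 7 ventricular genes had a negative change, with a median of -0.23 on the log2 scale against 0.01 over all genes (-0.26 without the library labelled replicate 2), and 2 passed the threshold, Mycn and Irx4. Mycn (chr12:12936093-12941836), a transcription factor of cell growth that is needed for the compact ventricular wall, stood at 53.0, 77.4 and 83.6 CPM in wild-type and 43.8, 58.9 and 63.0 CPM in Nipbl +/- hearts. The groups overlapped only through wild-type replicate 7, at 53.0 CPM, since every other wild-type library stood at 68.4 CPM or more. In log2 the change was -0.47 (SE 0.08, edgeR adjusted p = 4.21e-04) and -0.43 without the library labelled replicate 2.

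Irx4 (chr13:73259589-73269622), a homeobox factor that maintains the ventricular program, had levels of 66.0, 99.2 and 136 CPM in wild-type and 34.0, 68.2 and 82.9 CPM in Nipbl +/- hearts. The ranges overlapped, and the 34.0 CPM belonged to the library labelled replicate 2. The log2 change was -0.47 (SE 0.12, edgeR adjusted p = 0.0326) and -0.38 (adjusted p = 0.0152) without that library. The call was lost, with an adjusted p of 0.0541 to 0.0714, when wild-type replicate 4, 5, 8, 9 or 10 or Nipbl +/- replicate 9 was left out, and it was 0.498 in the fit on the 19 libraries alone. Hey2, a Notch-responsive repressor of the atrial program in ventricles, was past the threshold only without the library labelled replicate 2, at -0.33 (SE 0.09, adjusted p = 0.0277). That library held the highest Hey2 level of the 19, 106 CPM.

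Irx6, another Iroquois homeobox gene, was among the 10 leading lower genes. It stood at 9.79, 12.5 and 16.8 CPM in wild-type and at 6.06, 7.43 and 11.6 CPM in Nipbl +/- hearts. The 11.6 CPM came from the library labelled replicate 2, and the other 8 libraries, between 6.06 and 8.27 CPM, lay below every wild-type library. The log2 change was -0.76 (SE 0.14, edgeR adjusted p = 0.002) and -0.83 without it. Of 12 genes of the trabecular and compact wall, 11 had a negative change, with a median of -0.22 (11 and -0.18 without the library labelled replicate 2). Hopx, a homeodomain protein that tunes cardiomyocyte growth, was the one past the threshold, at -0.37 (SE 0.09, adjusted p = 0.0304) and -0.31 without that library. In the fit on the 19 libraries alone its adjusted p was 0.449. It lost the call in 9 of the 19 fits that left out 1 library, with an adjusted p of up to 0.0983 (without wild-type replicate 4).

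On the atrial side 6 of 9 genes had a positive and 3 a negative change, with a median of 0.29. Without the library labelled replicate 2, 7 had a positive change, with a median of 0.23. The summed level of the 9 did not rise: it was 13063, 15606 and 19521 CPM in wild-type and 12290.5, 14078.5 and 16688 CPM in Nipbl +/- hearts. Past the threshold were 2, Kcnj3 and Sln. Kcnj3 (chr2:55411798-55598145), a subunit of the acetylcholine-gated potassium channel of atrial and pacemaker muscle, stood at 12.9, 15.8 and 20.3 CPM in wild-type and 18.3, 23.5 and 30.6 CPM in Nipbl +/- hearts. In 8 of 9 Nipbl +/- libraries it was above every wild-type library. The log2 change was 0.53 (SE 0.09, edgeR adjusted p = 9.71e-04) and 0.48 without the library labelled replicate 2, which held the highest value. Sln, which encodes sarcolipin, the atrial inhibitor of the calcium pump SERCA, was weakly expressed. It stood at 0, 0.610 and 1.66 CPM in wild-type and 0.109, 1.97 and 4.40 CPM in Nipbl +/- hearts, with 6 of 9 libraries above every wild-type library. The 0.109 CPM belonged to the library labelled replicate 2. Its fitted log2 change was 1.84 (SE 0.40, adjusted p = 0.0109) and 1.95 (adjusted p = 7.91e-04) without that library. In the fit on the 19 libraries alone Kcnj3 and Sln did not pass (adjusted p = 0.0574 and 0.293).

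Nr2f2, the nuclear receptor COUP-TFII that sets atrial identity, changed by 0.55 (SE 0.15, edgeR adjusted p = 0.0503) with all 9 libraries, just outside the threshold. Without the library labelled replicate 2 it passed, at 0.61 (SE 0.14, adjusted p = 0.016). Its levels were 14.8, 46.0 and 59.6 CPM in wild-type, and 8 of 9 Nipbl +/- libraries, from 60.3 to 81.3 CPM, lay above all of them. Several of the chamber changes were smaller in the Isl1 +/- hearts, where Kcnj3 changed by 0.16 (edgeR adjusted p = 0.905), Nr2f2 by 0.18 (adjusted p = 0.9999) and Irx4 by -0.25 (adjusted p = 0.696). Hey2 was not smaller, at -0.24 there and -0.23 with all 9 Nipbl +/- libraries. For these genes the differences between the 2 effects did not pass the test given above. The share of each chamber in the dissected tissue was not measured, so its part in these results was not tested.

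**Figure D4:**
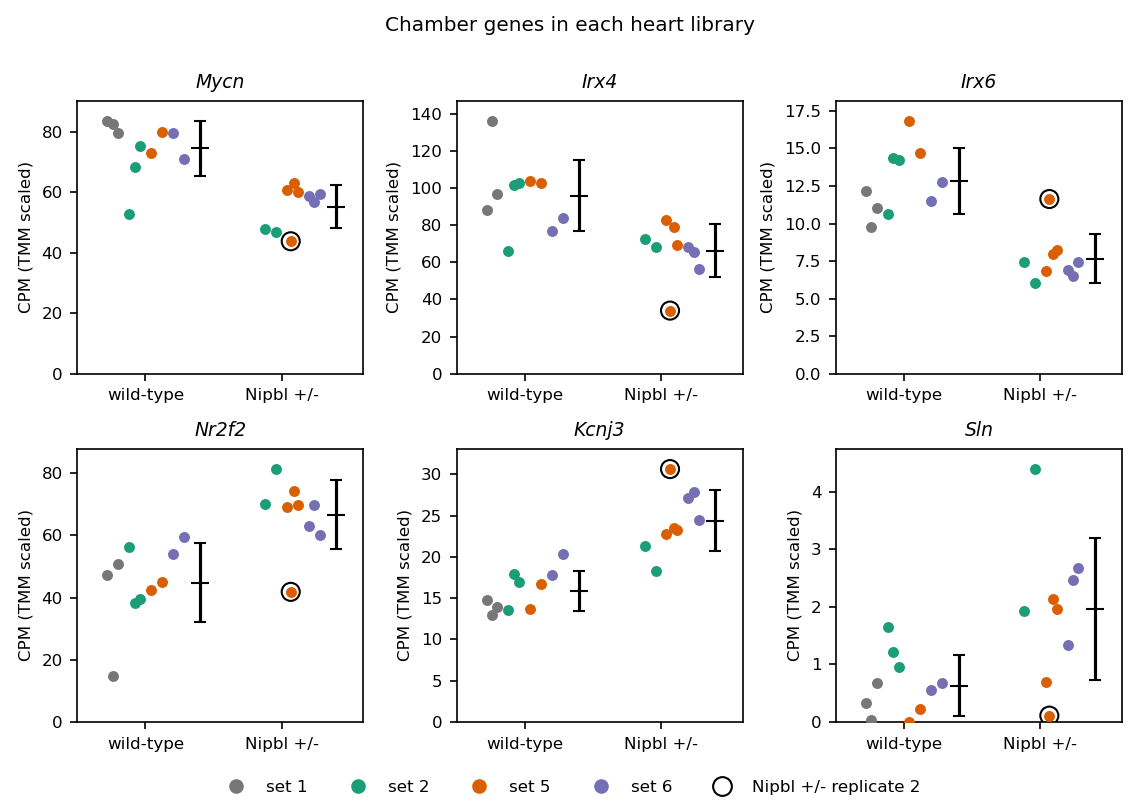
Level in CPM of 6 chamber genes in each of 10 wild-type and 9 Nipbl +/- libraries, coloured by set, with the mean and SD as a black bar and a ring around the library labelled Nipbl +/- replicate 2. Mycn, Irx4 and Irx6 are lower and Nr2f2, Kcnj3 and Sln higher in most Nipbl +/- libraries, and the ringed library departs from its group for Irx6 (11.6 CPM), Nr2f2 (41.8 CPM) and Sln (0.109 CPM).

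The core of the cardiac program held few or no calls. Of 15 core cardiac transcription factors 0 passed in edgeR in either fit (0 and 2 at an unadjusted p under 0.05 with and without the library labelled replicate 2, and 0 and 1 in DESeq2), and their median change was 0.06. Of 16 sarcomere genes 0 passed in edgeR in either fit (3 and 4 at an unadjusted p under 0.05, and 0 and 0 in DESeq2), with a median of -0.11. In the conduction list of 10 genes, Gja1, which encodes the gap junction protein connexin 43, was the one past the threshold, at -0.42 (SE 0.09, edgeR adjusted p = 0.0134) and -0.45 without the library labelled replicate 2. It stood at 71.8, 114 and 155 CPM in wild-type and 63.7, 96.8 and 113 CPM in Nipbl +/- hearts. The groups overlapped widely, and the change was -0.74, -0.26 and -0.30 within sets 2, 5 and 6. Gja1 did not pass in the fit on the 19 libraries alone (adjusted p = 0.267).

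Among cohesin genes Nipbl led. Of 7 genes for the cohesin ring and its loaders, Nipbl was the only one past the threshold with all libraries. Smc1a, a subunit of the ring and an X-linked gene, sat at the edge without the library labelled replicate 2, at -0.21 (SE 0.06, edgeR adjusted p = 0.05), and at -0.14 (adjusted p = 0.404) with it. It overlaps another tested gene, Ribc1. Of 9 genes for cohesin release, establishment and CTCF, 0 passed in edgeR in either fit (1 and 0 at an unadjusted p under 0.05, and 0 and 0 in DESeq2).

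Genes of the second heart field, the progenitors that lengthen the heart tube, included 2 of 15 that rose, Isl1 and Tbx1, against 1.2% of all genes called higher. Isl1 (chr13:116298270-116309688), their defining transcription factor, stood at 5.03, 6.82 and 13.0 CPM in wild-type and 9.11, 12.5 and 17.5 CPM in Nipbl +/- hearts. The highest wild-type value, in replicate 7, overlapped most of the Nipbl +/- range, while all 9 Nipbl +/- libraries were above the wild-type mean. The log2 change was 0.79 (SE 0.19, edgeR adjusted p = 0.0252) and 0.81 (adjusted p = 0.019) without the library labelled replicate 2. The call was lost, with an adjusted p of 0.0547 to 0.074, when wild-type replicate 4, 6, 8 or 9 or Nipbl +/- replicate 9 was left out, and in the fit on the 19 libraries alone (adjusted p = 0.0574).

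Tbx1, a factor of the pharyngeal part of that field, reached 1.38 (SE 0.35, edgeR adjusted p = 0.0322) with all libraries and 1.01 (adjusted p = 0.0605) without the library labelled replicate 2, which held its highest level at 5.38 CPM. Its call was lost in 9 of the 19 fits that left out 1 library, at up to 0.0745 without Nipbl +/- replicate 9. Lhx2, of the same field, reached 1.67 (SE 0.44, adjusted p = 0.0328) only without that library. Its highest level, 9.00 CPM, was in Nipbl +/- replicate 9, the library with the endoderm markers, and without replicate 9 the change was 1.10 (adjusted p = 0.242). Of the 15 genes in this list 11 had a positive change, with a median of 0.24, and of 0.03 without the library labelled replicate 2. The amount of pharyngeal tissue left on each heart was not measured, and its part was not tested.

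Hox genes, which are read out in order along the body axis and mark posterior second heart field in the heart, were low in all libraries. Of 27 listed genes 11 passed the low-count filter, and these 11 all had a positive change, which describes them and does not test the family. The summed level of the list was 7.42, 10.4 and 31.7 CPM in wild-type and 14.6, 23.9 and 61.5 CPM in Nipbl +/- hearts, highest in Nipbl +/- replicate 9 and, among wild-type, in replicate 7. Hoxa3, a factor of the pharyngeal arches, stood at 0.0976, 0.360 and 1.15 CPM in wild-type and 0.858, 1.53 and 4.55 CPM in Nipbl +/- hearts, with 7 of 9 libraries above every wild-type library. It changed by 1.83 (SE 0.34, edgeR adjusted p = 0.00249), and by 1.62 (adjusted p = 0.0108) without Nipbl +/- replicate 9. Without the library labelled replicate 2 it was 1.76 (adjusted p = 0.00256), and in the fit on the 19 libraries alone Hoxa3 did not pass (adjusted p = 0.171). In the Isl1 +/- hearts the change was 0.28, with an adjusted p of 1. Hoxa3 overlaps other Hox and antisense transcripts, and without a stated strand setting their reads cannot be told apart.

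Beta protocadherins are cell surface proteins encoded in a clustered array on chromosome 18, where promoter choice depends on loops made by cohesin and CTCF. Of 22 listed genes 11 passed the filter on low counts, and these 11 all had a negative change, with a median log2 change of -1.22, and -1.14 without the library labelled replicate 2. Genes this weakly expressed can pass the filter through the group in which they are higher, so the 11 are a description and not a test of the family. The sum over the 22 genes was 4.32, 7.81 and 8.83 CPM in wild-type against 1.15, 3.84 and 5.16 CPM in Nipbl +/- hearts. The lowest sum was that of the library labelled replicate 2, while the other 8 lay between 2.86 and 5.16 CPM. Past the threshold in both fits were 6, Pcdhb14, Pcdhb16, Pcdhb18, Pcdhb19, Pcdhb20 and Pcdhb22, against a background of 0.518% of genes called lower.

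Pcdhb22, the most abundant of them, stood at 1.11, 1.52 and 1.64 CPM in wild-type and 0.164, 0.727 and 1.32 CPM in Nipbl +/- hearts. In 8 of 9 Nipbl +/- libraries it lay below every wild-type library. Its log2 change was -1.09 (SE 0.24, edgeR adjusted p = 0.011), -0.96 without the library labelled replicate 2 and -1.12 (SE 0.25, adjusted p = 0.0203) in the Isl1 +/- hearts. Pcdhb20 had a log2 change of -1.45 (SE 0.25, edgeR adjusted p = 0.00102), -1.33 without the library labelled replicate 2 and -1.45 (adjusted p = 0.00193) in the Isl1 +/- hearts. Pcdhb16 ranged from 0.182 to 0.514 CPM in wild-type and from 0 to 0.178 CPM in Nipbl +/- hearts, so the groups did not overlap, at 7 to 20 counts against 0 to 8. The log2 changes of Pcdhb14, Pcdhb16, Pcdhb18 and Pcdhb19 were -1.42, -1.87, -1.36 and -1.29, and -1.40, -1.71, -1.27 and -1.27 without the library labelled replicate 2. Pcdhb14 lost its call without wild-type replicate 5 or Nipbl +/- replicate 3, at an adjusted p of 0.0708 and 0.0558. In the fit on the 19 libraries alone Pcdhb19 passed (adjusted p = 0.0443), and Pcdhb20 and Pcdhb22 did not (adjusted p = 0.0703 and 0.19), while Pcdhb14, Pcdhb16 and Pcdhb18 were under its filter on low counts. Members of this array are near copies with overlapping annotations, so reads may be shared between them.

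**Figure D5:**
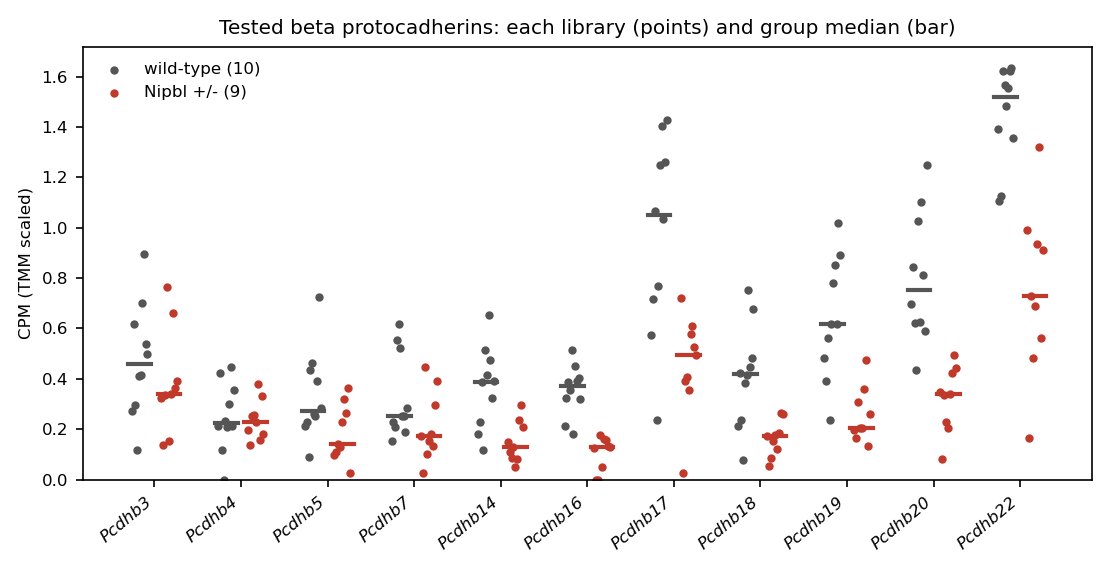
Level in CPM of the 11 tested beta protocadherins in 10 wild-type (grey) and 9 Nipbl +/- (red) libraries, with the group median as a bar. The median of Pcdhb22 is 1.52 CPM in wild-type and 0.727 CPM in Nipbl +/- hearts, and the medians of most others are also lower.

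Markers of the other cells in the heart passed the test in few cases. Of 12 cushion mesenchyme genes 0 passed in edgeR in either fit, with 0 and 0 at an unadjusted p under 0.05 and 0 and 0 in DESeq2. Of 10 endothelial and endocardial genes 0 passed with all libraries (1 at an unadjusted p under 0.05, 0 in DESeq2), and without the library labelled replicate 2 Npr3, the natriuretic peptide clearance receptor of endocardium, passed at -0.25 (SE 0.07, adjusted p = 0.0357). Of 8 tested erythroid genes, which all had a negative change with a median of -0.77, 0 passed in edgeR in either fit, with 0 and 0 at an unadjusted p under 0.05 and 0 and 0 in DESeq2. Of 7 tested macrophage genes, all with a positive change, and 6 tested endoderm genes 0 and 0 passed in edgeR in either fit, with 3 and 3 of each at an unadjusted p under 0.05. DESeq2 called 2 and 0 of the macrophage and 1 and 1 of the endoderm genes. The summed macrophage level was highest in the library labelled replicate 2, at 31.7 CPM, against at most 16.7 CPM in the others. Of 6 tested neural crest genes 0 passed in edgeR in either fit, with 0 and 0 at an unadjusted p under 0.05 and 0 and 0 in DESeq2.

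The epicardium, the outer cell layer, had 1 marker of 9 that rose, against 1.2% of all genes called higher. At an unadjusted p under 0.05 there were 4, and 5 without the library labelled replicate 2, and DESeq2 called 2 and 4. With all libraries its 9 markers had a positive change, with a median of 0.27, and without the library labelled replicate 2 7 had a positive and 2 a negative change. Of the 9, Wt1, its defining transcription factor, passed in both fits. Wt1 (chr2:105126529-105173614) stood at 38.5, 47.9 and 55.9 CPM in wild-type and 48.5, 62.5 and 72.1 CPM in Nipbl +/- hearts, with 8 of 9 Nipbl +/- libraries above every wild-type library. The log2 change was 0.31 (SE 0.07, edgeR adjusted p = 0.0178), 0.31 without the library labelled replicate 2 and 0.54 (SE 0.08, adjusted p = 9.53e-05) in the Isl1 +/- hearts. The call was lost at an adjusted p of 0.0505 to 0.0515 without wild-type replicate 4 or 5 or Nipbl +/- replicate 9, and at 0.127 in the fit on the 19 libraries alone.

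Sox3, an X-linked transcription factor of neural progenitors, was one of the clearest falls and did not overlap between the groups. It stood at 6.81, 10.3 and 13.5 CPM in wild-type and 3.06, 5.48 and 6.23 CPM in Nipbl +/- hearts. Its log2 change was -0.97 (SE 0.13, edgeR adjusted p = 7.34e-05), -0.90 without the library labelled replicate 2 and -0.69 (adjusted p = 0.00882) in the Isl1 +/- hearts. The sex of the embryos is not labelled; with the Xist level as a covariate, its call was the same. Other genes of the neural list went both ways: Pax6, an eye and neural tube factor, changed by 0.93 (adjusted p = 0.0231), and by 0.88 without the library labelled replicate 2, at levels under 1.3 CPM, and lost its call without Nipbl +/- replicate 3 or 9 (adjusted p = 0.0555 and 0.0603) and in the fit on the 19 libraries alone (adjusted p = 0.198). Tubb3, a neuronal tubulin, passed only without the library labelled replicate 2, at 0.54 (adjusted p = 0.0186). The summed neural level was 264 to 492 CPM in wild-type and 268 to 372 CPM in Nipbl +/- hearts other than that library, which stood at 98.3 CPM.

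Growth and signalling lists changed in few members. Of 15 cell cycle genes 14 had a negative change, with a median of -0.11, and the one past the threshold was Cdkn1c, an imprinted inhibitor of cyclin-dependent kinases rather than a driver of division. It stood at 2927, 4001 and 5454 CPM in wild-type and 1269, 2780.2 and 3615 CPM in Nipbl +/- hearts. Its log2 change was -0.47 (SE 0.13, edgeR adjusted p = 0.0464) and -0.38 (adjusted p = 0.0346) without the library labelled replicate 2. Its adjusted p was 0.422 in the fit on the 19 libraries alone and 0.0533 to 0.144 in 14 of the 19 fits that left out 1 library, the highest without wild-type replicate 4. In the Myc network 2 of 14 genes were lower, against 0.518% of all genes: Mycn and Ncl, which encodes the nucleolar protein nucleolin. Ncl changed by -0.29 (SE 0.08, adjusted p = 0.0439), and by -0.31 without the library labelled replicate 2. It had an adjusted p of 0.36 in the fit on the 19 libraries alone, and lost the call in 10 of those 19 fits, at up to 0.148 without wild-type replicate 4. In the Notch pathway 0 of 15 genes passed the threshold with all libraries, and 2 were higher and 1 lower without the library labelled replicate 2, where 1.78% and 0.936% of all genes were. The target Heyl and the modifier Lfng were higher, at 0.43 and 0.55 (adjusted p = 0.012 and 0.0154), and Hey2 lower, each only without the library labelled replicate 2, where Heyl was 0.492 CPM and Lfng 1.31 CPM, the lowest of the 19 libraries.

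Lists for the BMP and TGF-beta, Wnt and hedgehog pathways had 0 of 16, 0 of 16 and 0 of 10 tested genes past the threshold in edgeR in either fit. At an unadjusted p under 0.05 they had 1, 4 and 2 with all libraries and 2, 7 and 2 without the library labelled replicate 2, and DESeq2 called 0, 2 and 0, and 0, 3 and 0. Among 18 tested genes of the imprinted list, which are expressed from 1 parental copy and do not include Klf14, 1 was higher and 1 lower, against 1.2% and 0.518% of all genes. Peg10 was higher at 0.49 (SE 0.13, edgeR adjusted p = 0.0335) and Cdkn1c lower. Without the library labelled replicate 2 the Peg10 change was 0.40 (adjusted p = 0.0417). In that fit 2 imprinted genes were lower, Cdkn1c and Grb10, against 0.936% of all genes. Within sets 2, 5 and 6 the Peg10 change was 0.72, 0.77 and -0.14, so the sign turned in set 6, and in the fit on the 19 libraries alone its adjusted p was 0.507. The Peg10 call was lost in 8 of the 19 fits, at up to 0.0996 without Nipbl +/- replicate 9. Grb10, a growth factor receptor adaptor, was lower only without the library labelled replicate 2, at -0.22 (SE 0.06, adjusted p = 0.0343).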

How the data were processed

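Bulk paired-end RNA sequencing measured hearts of mouse embryos at E10.5, with RNA from the NEB Monarch kit and NEBNext Ultra II libraries, per the labels' protocols. The authors deposited raw read counts, 1 column per library and 25239 gene symbols. Per the submitters' processing notes, STAR and featureCounts and the builds GRCm38 and mm10 were used. Versions, annotation and strand setting are not given in the sources used here, so overlapping and near-identical genes are uncertain: of 53 named genes, 6 overlap another tested gene in RefSeq (GRCm38.p6), which matched 25041 symbols.

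Genotypes came from titles and sets from the description label. No pair of compared libraries of 1 group looked like a repeat deposit. The filterByExpr function, given the genotypes, kept 15046 genes (count of at least 10, total of at least 15). Counts were scaled by TMM and fitted in edgeR 4.0.16 (quasi-likelihood; R 4.3.3, limma 3.58.1) over all 37 libraries, with factors for genotype and set. P-values were two-sided and adjusted by Benjamini-Hochberg over all genes at 0.05. The fit was repeated without the library labelled Nipbl +/- replicate 2. CPM are TMM scaled. Tables and plots used Python 3.11.15, pandas 2.3.3 and matplotlib 3.10.9, and promoters were aligned with Biopython 1.88.

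Genes named were Nipbl, Isl1, up to 10 per direction with the smallest p-values among autosomal genes called in both fits (mean log2 CPM at least 1, same direction in sets 2, 5 and 6, no Gm, Rik or pseudogene symbol), and list members called in either fit. One such member is not reported here. The members and lists were chosen with earlier results of these data known. In a simulation over 15046 genes with 200 changed, Nipbl +/- against wild-type recovered 53.7%, 85.1% and 100% of those with a log2 change of 0.5, 1 and 2, and 9 of 168 calls were false. Its counts were drawn gene by gene, with no outlying library and no shift in cell content built in. Rates in the real libraries may therefore differ. Alternatives included DESeq2 1.42.0, sva 3.50.0, other filters and scalings, and libraries or sets left out. Reads are not independent molecules, so the depth limits only counting error.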

Additional observations from a re-analysis of the deposited data

Results flagged for a closer look

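Within the 10 wild-type and the 9 Nipbl +/- libraries, 106 sets of values for named genes were checked for a single library far from its neighbours, and 16 were flagged. The rule was Dixon's test at its 95% critical value, by whose nominal rate chance flags about 1 in 20 groups. Of the 16, 9 concerned the library labelled Nipbl +/- replicate 2. That library was far above the rest of its group for Nipbl at 72.4 CPM, H2bu2 at 15.3 CPM, Irx6 at 11.6 CPM, Smc1a at 262 CPM, Hey2 at 106 CPM, Adm at 105 CPM and Grb10 at 1714 CPM. It was far below its group for Trib2 at 18.6 CPM and Npr3 at 35.0 CPM. Of these genes, Smc1a, Hey2, Npr3, Adm and Grb10 were named only because they passed without that library. Its Nipbl level and stress genes had already set the library apart, so its flags are a description and no separate support. For Adm, a low-oxygen gene, the other 8 Nipbl +/- libraries stood at 7.99 to 10.2 CPM and the wild-type libraries at 5.17 to 9.04 CPM.

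Nipbl +/- replicate 9 was far above its group for Lhx2 at 9.00 CPM and Hoxa3 at 4.55 CPM, and it also held the highest Afp level, 301 CPM. Among wild-type hearts, replicate 7 was high for Isl1 at 13.0 CPM and low for Mycn at 53.0 CPM, and it held the highest summed erythroid level, 106543 CPM. Wild-type replicate 8 was high for Lhx2 at 3.05 CPM, replicate 2 was low for Nr2f2 at 14.8 CPM, and replicate 3 was low for Smc1a at 165 CPM. What set these libraries apart was not tested.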

How the results depend on the processing

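Across the named genes and alternatives, no change reversed its sign: 1502 values kept their direction and side of the threshold, 157 fell below it and 43 rose past it. The number of genes past the threshold with all 9 Nipbl +/- libraries, 258, became 467 without a set term, 459 in DESeq2, 1332 with 2 surrogate variables, 21 in the fit on the 19 libraries alone, and 118, 31 and 124 without set 1, 2 and 5. The share of higher genes among the calls moved too. It was 69.8% in the main fit, 79.9% without a set term, 50.8% with 2 surrogate variables, 57.1% on the 19 libraries alone and 54.8% without set 2. Leaving out 1 library gave 167 (without Nipbl +/- replicate 9) to 410 (without the library labelled replicate 2). Without that library the count of 410 became 639 in DESeq2, 88 in the fit on the 18 libraries alone, and 263, 89, 124 and 245 without set 1, 2, 5 and 6. The Nipbl change was -0.78 (edgeR adjusted p = 0.0552) in the 19-library fit and -0.66 (adjusted p = 0.0576) without set 2, and passed in the other alternatives that kept the library labelled replicate 2. Fewer libraries in a fit leave fewer degrees of freedom; other causes were not tested. With replicate number as a block in place of set, 355 genes passed. Same-numbered pairs correlated at -0.17 to 0.40, with 5 of 9 above 0.1, and 2 of 9 Nipbl +/- libraries correlated best with their own number. Whether the numbers mark pairs was not settled by these values. Weakly expressed genes such as the Hox and beta protocadherin families rest on few counts.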

Other observations

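Other muscle and matrix genes were among the calls common to both fits; the 5 given here were chosen after their values were seen. Myh11, the myosin heavy chain of smooth muscle, stood at 1.21, 3.13 and 8.33 CPM (lowest, median, highest) in wild-type and 5.38, 8.55 and 13.9 CPM in Nipbl +/- hearts, a log2 change of 1.36 (SE 0.30, edgeR adjusted p = 0.0126). The ranges overlapped, and 6 of 9 Nipbl +/- libraries lay above every wild-type one. Atp2a1, the calcium pump of fast skeletal muscle, changed by 0.92 (SE 0.22, adjusted p = 0.0212), with a change of 0.08 within set 6, and its adjusted p was up to 0.0633 (without Nipbl +/- replicate 3) when a library was left out. Cacng6, a gamma subunit of calcium channels, did not overlap between the groups, at 9.88, 14.2 and 23.1 CPM in wild-type and 4.21, 8.50 and 9.74 CPM in Nipbl +/- hearts. Cacng6 changed by -0.82 (SE 0.16, adjusted p = 0.00353), and by -0.81 (adjusted p = 0.0104) in the Isl1 +/- hearts.

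Cnmd, which encodes chondromodulin, a matrix glycoprotein that inhibits vessel growth and is found in cartilage and heart valves, changed by 0.95 (SE 0.21, edgeR adjusted p = 0.0126) and by 1.33 (SE 0.22, adjusted p = 0.00105) in the Isl1 +/- hearts. It was above every wild-type library in 7 of 9 Nipbl +/- libraries. Cdh10, a classical cadherin, changed by 0.95 (SE 0.20, adjusted p = 0.0072) and by 0.85 (adjusted p = 0.0277) in the Isl1 +/- hearts. In the fit on the 19 libraries alone Cnmd passed (adjusted p = 0.0269), and Myh11, Atp2a1, Cacng6 and Cdh10 did not (adjusted p = 0.0928, 0.406, 0.0574 and 0.171). Myh11, Atp2a1, Cacng6, Cnmd and Cdh10 changed by 1.28, 0.95, -0.73, 1.02 and 0.96 without the library labelled Nipbl +/- replicate 2.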
